A study of Mus musculus with 4 samples.

Results

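The actin cytoskeleton core genes described here are 10 genes listed for their place in actin filament biology: the cytoplasmic actins Actb and Actg1, the actin monomer binding or turnover genes Pfn1, Cfl1, Tmsb4x and Tmsb10, the Arp2/3 complex subunits Arpc1b and Arpc2, and the filament-binding genes Coro1a and Lsp1. A row was found for 10 of the 10 names among 11352 gene rows. They were measured in group 2 innate lymphoid cells (ILC2), tissue-resident lymphocytes of type 2 immunity, sorted from the pancreas of C57BL6J mice as single cells into 4 plates of 384 wells. They expressed KIKR, a green fluorescent reporter that violet light converts to red, so the sort record gives each well as red (photoconverted), green (non-photoconverted) or empty. Every sorted cell shares the tissue, the sort for ILC2 and the reporter. The labels and the sort record give no feeding state, age or animal for any well, although the study's title names fasting.

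Actin monomers join into filaments that push the membrane forward, pull on contacts and shape a moving lymphocyte. Profilin loads monomers onto growing ends, thymosins hold monomers in reserve, cofilin severs old filaments, and the Arp2/3 complex starts branches from existing ones. Coronin 1A and LSP1 bind filaments in leukocytes.

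The row names fit plate 1 only, so every value below is from plate 1, which is 1 sample, and no test between colours was possible. Of its 163 sorted cells, 8 photoconverted and 98 non-photoconverted cells passed a filter of at least 500 genes and under 25% mitochondrial reads, and 221 wells were empty. Photoconverted cells gave a median of 540662 reads of genes and 2748.5 genes, non-photoconverted cells 187690 reads and 1637 genes, and empty wells 353 reads and 92 genes. Each photoconverted cell was therefore set against the 5 non-photoconverted cells nearest to it in genes, which gave 29 distinct depth-matched cells with the weight of 22.9 equal ones (weighted median 2633 genes). Each counted once, these cells had a median of 365563 reads of genes. The deepest of them had 4480 genes, against 5129 in the deepest photoconverted cell, so a gap in depth remained. At least 3 ILC2 markers were present at 16 reads in 8 of 8 photoconverted and 81 of 98 non-photoconverted cells. At least 3 markers of T, NK or acinar cells were present in 0 of 106, again at the limit of 16 reads. Prf1, among the 3 NK markers with a row, and the 4 acinar markers with a row were each in 0 cells. The B, myeloid, mast, stromal and endocrine lists had fewer than 3 markers with a row, so their count of 0 was fixed in advance. These counts therefore say little on other cell types. Acta1 and Acta2, the skeletal and smooth muscle actins, were present in 0 of 106 cells at that limit. One of the empty wells also met the cell filter.

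Promoters of 3 core genes are shown because Pfn1, Actg1 and Cfl1 had the highest level differences of the 10 in the comparison of colours below. The sequences are from RefSeq (GRCm38.p6, the same assembly as mm10), run from 250 bases before to 50 bases after the start site, and read 5′ to 3′ on the gene's strand. Actg1 is at chr11:120348446-120348745, minus strand. Pfn1 is at chr11:70654601-70654900, minus strand. Cfl1 is at chr19:5490205-5490504, plus strand. Capitals mark a CArG box, the letters that serum response factor is known to bind.
Actg1: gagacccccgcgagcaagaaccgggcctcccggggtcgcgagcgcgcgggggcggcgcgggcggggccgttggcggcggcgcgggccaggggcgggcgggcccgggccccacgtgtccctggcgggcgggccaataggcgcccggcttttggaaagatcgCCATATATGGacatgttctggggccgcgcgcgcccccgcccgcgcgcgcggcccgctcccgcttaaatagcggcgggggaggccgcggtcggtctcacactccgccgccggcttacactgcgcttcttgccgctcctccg
Pfn1: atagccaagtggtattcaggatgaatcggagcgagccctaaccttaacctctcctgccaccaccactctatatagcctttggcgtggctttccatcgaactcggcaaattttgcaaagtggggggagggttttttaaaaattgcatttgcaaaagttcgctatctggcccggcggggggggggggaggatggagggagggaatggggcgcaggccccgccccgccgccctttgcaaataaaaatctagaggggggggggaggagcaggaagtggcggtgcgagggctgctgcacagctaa
Cfl1: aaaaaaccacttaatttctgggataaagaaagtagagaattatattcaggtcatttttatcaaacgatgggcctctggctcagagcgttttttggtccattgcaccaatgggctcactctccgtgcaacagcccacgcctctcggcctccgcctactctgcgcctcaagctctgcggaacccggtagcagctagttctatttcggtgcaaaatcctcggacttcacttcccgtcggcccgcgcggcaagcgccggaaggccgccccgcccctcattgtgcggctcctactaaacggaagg
The CArG box in Actg1 starts 90 bases before the start site. The search took both strands, and the box was found in 1 of 11 promoter windows of the 8 core genes with an entry (Actb and Lsp1 were not matched), against 1.63% of all 32851 windows. CCCGCC, the letters of a GC box, was found in 7 of these 11 windows and in 35.3% of all windows, CCAAT in 2 of 11 and 37.4%, and TATAAA in 0 of 11 and 13.6%. A match is a run of letters and was not shown to be bound.

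Of the cytoplasmic actins, Actb was detected in nearly every cell and Actg1 in most. Actb, beta-actin (chromosome 5, 142903115 to 142906754, mm10, the whole protein-coding gene), gave 109 to 25444 reads per photoconverted cell (median 3936) and 3 to 11432 per non-photoconverted cell (median 799.5). Scaled to 1000000 reads of genes per cell (CPM), the 8 photoconverted cells ran from 844 to 21001, with a median of 6104. All non-photoconverted cells ran from 79.3 to 36073 (median 4747), and the depth-matched ones had a weighted median of 4178. The ranges overlapped almost completely: photoconverted cell 1 stood highest of its colour and cell 5 lowest. On the scale log2(CPM + 10), averaged over cells, Actb was 0.25 higher in photoconverted than in depth-matched cells, beside a standard deviation (SD) between cells of 1.54 in 8 photoconverted and 1.24 in depth-matched cells. Without cell 1 the difference was 0.006 and without cell 4 it was 0.07, whereas it was 0.63 without cell 5 and 1.98 with no filter on cells.

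Actg1, gamma-actin (chromosome 11, 120345690 to 120348542), whose promoter is printed above, varied more than Actb in depth-matched cells and less in photoconverted cells. Its CPM ran from 941 to 13841 in photoconverted cells (median 7984), from 0 to 19954 in non-photoconverted cells (median 2339), and had a weighted median of 4377 in depth-matched cells. The difference from depth-matched cells was 0.93 log2 units (SD 1.31 and 1.68), and 6 of 8 photoconverted cells lay above the matched median. Its reads reached 16 in 8 of 8 photoconverted cells (95% binomial interval, exact, 63.1 to 100%). Of the 98 non-photoconverted cells 86.7% reached that limit (78.4 to 92.7%), of depth-matched cells 95%, and of empty wells 2.26%. Of the 13 non-photoconverted cells without it, 12 had Actb, and their median number of genes was 688, against 1777 in cells with it.

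The balance of both actins differed from cell to cell. Actb took 65.3, 51.6, 50.03, 52.3, 47.3, 51.8, 27.3 and 45.99% of the summed Actb and Actg1 reads in photoconverted cells 1 to 8. In 6 of the 8 the value lay between 45 and 55%, a band chosen after these values were seen. Of non-photoconverted cells, 12 of 98 lay in that band (20% of the depth-matched weight), and the range was 4.94 to 100% with a median of 61.9%. The matched cells had a weighted median of 54.3%, with quartiles at 41.5 and 68.9%. Values under 20% or over 80% were found in 0 photoconverted cells and 32 non-photoconverted cells. Of these 32, 21 were among the 49 cells with the fewest genes. The 32 cells held 22.5% of the depth-matched weight. Photoconverted cells also had more reads of both actins to draw on, with a median of 8763.5 against a weighted 4169 in matched cells, and the part of depth in the narrower spread was not tested.

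**Figure D1:**
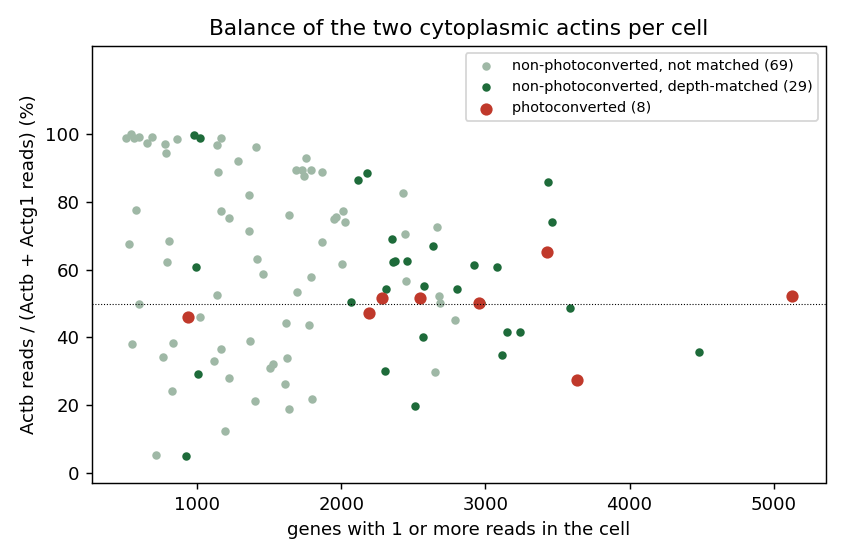
Actb reads as a percentage of Actb plus Actg1 reads (vertical axis) against the number of genes with 1 or more reads (horizontal axis) for each cell of plate 1: 8 photoconverted cells, 29 depth-matched and 69 other non-photoconverted cells. The dotted line is at 50%. Non-photoconverted cells fill the range from 4.94 to 100%, most widely at few genes, and 6 photoconverted cells lie between 45 and 55%.

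Profilin 1 and cofilin 1 had higher mean levels in photoconverted cells. Pfn1, which feeds monomers to growing filaments (chromosome 11, 70651850 to 70654644), had from 283 to 8645 CPM in photoconverted cells (median 4827) and from 0 to 24925 in non-photoconverted cells (median 1568), with a matched weighted median of 2023. Its difference of 1.21 log2 units was the one core gene difference of more than 1 unit upwards, or 1 of 10, where 10.2% of the 4901 genes tested passed the same limit. In 7 of 8 photoconverted cells Pfn1 lay above the matched median. Cell 8, with 938 genes the shallowest of its colour, was the exception at 283 CPM. Detection of Pfn1 was 8 of 8 in photoconverted, 90% in depth-matched and 81.6% in all non-photoconverted cells (72.5 to 88.7%). It was 0 of 221 in empty wells, which allows up to 1.66% by the exact interval. The SD between cells, 1.58 in photoconverted and 2.53 in matched cells, was larger than the difference. Without photoconverted cell 2 the Pfn1 difference was 0.92, so that 0 of 10 genes passed the limit, and without cell 5 it was 0.71, with Actg1 past the limit instead at 1.26. Without cell 3 or cell 7, 2 of 10 passed. As a log2 ratio of mean CPM (10 added to each mean) the Pfn1 difference was 0.37, and it was 2.03 without matching.

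Cfl1, cofilin 1 (chromosome 19, 5490455 to 5495201), ran from 3954 to 14839 CPM in photoconverted cells, with a median of 7677. Non-photoconverted cells ran from 0 to 24533 CPM (median 2429), and the matched weighted median was 5941. The difference was 0.85 log2 units (SD 0.65 in photoconverted, 1.29 in matched cells), and 2.21 with no matching for depth. Detection was at 100% in photoconverted and depth-matched cells and at 86.7% in all non-photoconverted cells (78.4 to 92.7%). Cell 8, the lowest of the 8 photoconverted cells for Pfn1, was the highest for Cfl1. The gene Snx32 overlaps Cfl1 on the other strand over 2967 bases, and its own row was at a mean of 1.5 CPM, against 4487 for Cfl1. Other core genes also have overlaps on the other strand. Pdap1 overlaps Arpc1b over 1937 bases (27.7 against 227 CPM), and Bola2 overlaps Coro1a over 26 bases (14.8 against 343 CPM). Prr33 overlaps Lsp1 over 3794 bases and has no row. The microRNA genes Gm23419 and Mir6935 overlap Actg1 on its own strand and have no row.

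Tmsb4x, thymosin beta-4, the main monomer-holding peptide of lymphocytes (chromosome X, 167207093 to 167209315), was the steadiest of the 10. Every cell that passed the filter had it at 16 reads or more, 8 of 8 and 98 of 98 (96.3 to 100%), and 5.88% of empty wells did. Its CPM ran from 4727 to 11477 in photoconverted cells (median 7170), and from 635 to 32166 in non-photoconverted cells (median 5736). The matched weighted median was 5154 CPM, and the difference was 0.36 log2 units (SD 0.44 and 0.72). Its coefficient of variation over non-photoconverted cells was 0.642, and 4.44% of the 135 genes with a mean of 1000 CPM or more there had a lower one. The coefficients of the other 9 core genes ran up to 2.71, that of Lsp1.

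Tmsb10, thymosin beta-10 (chromosome 6, 72957347 to 72958748), pointed the other way by mean log2 level but not by median CPM. Photoconverted cells ran from 0 to 1242 CPM (median 544), non-photoconverted cells from 0 to 3944 (median 444), and the matched weighted median was 514. The level difference was -0.56 log2 units (SD 2.50 and 1.13), and cells 5 and 8 were lowest, at 25.4 and 0 CPM. Without cell 5 the difference was -0.18, and without cell 8 it turned to 0.08. It was 0.27 without cells 7 and 8, the 2 photoconverted cells closest to the sort boundary by red intensity. As a log2 ratio of mean CPM (10 added to each mean) it was 0.12. Detection was 6 of 8 (34.9 to 96.8%), against 97.5% in depth-matched cells and 78.6% in the 98 cells (69.1 to 86.2%). Tmsb4x took more reads than Tmsb10 in 8 of 8 and 98 of 98 cells, and its share of the reads of both had medians of 93.5% (photoconverted) and 93.6% (non-photoconverted).

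**Figure D2:**
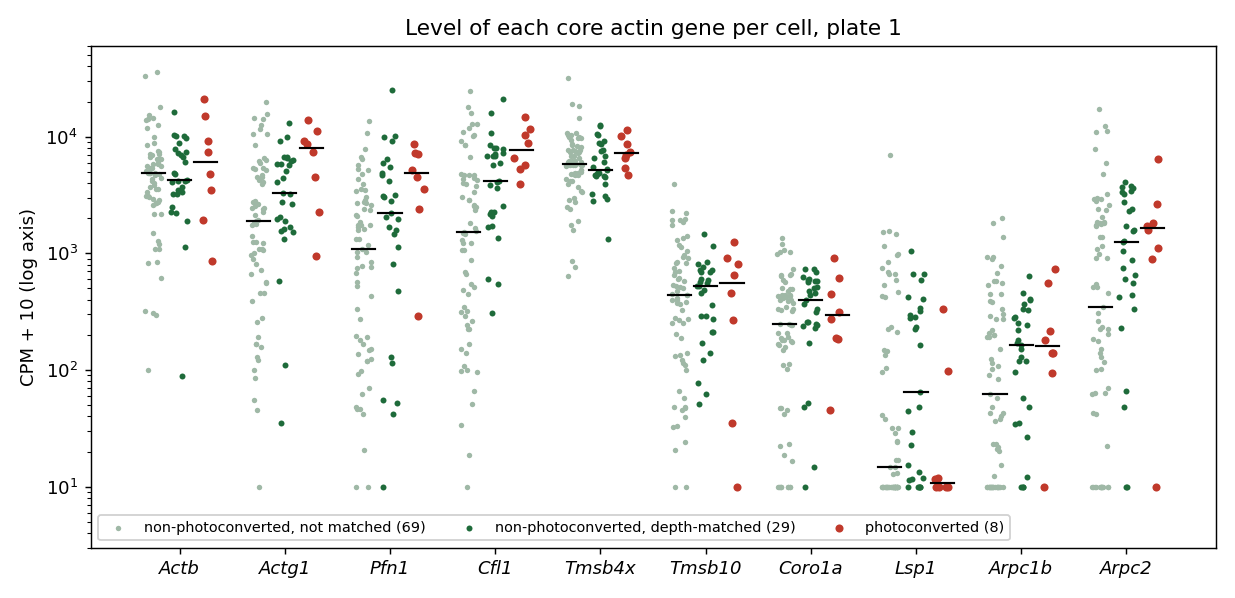
CPM plus 10, on a log axis, of each core gene in each cell of plate 1: 69 non-photoconverted cells outside the match, 29 depth-matched cells and 8 photoconverted cells, with a line at the median of the plotted cells, each counted once. Tmsb4x forms the tightest cloud in each set of cells, and 6 photoconverted cells sit at the foot of the Lsp1 column.

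The Arp2/3 subunits had mean levels close to those of depth-matched cells, with a wide spread. Arpc2, a subunit that holds the complex to the mother filament (chromosome 1, 74236084 to 74268209), ran from 0 to 6412 CPM in photoconverted cells (median 1631), and from 0 to 17167 in non-photoconverted cells (median 615), with a matched weighted median of 876. The difference was 0.21 log2 units (SD 2.81 and 2.13). Cell 8 alone stood at 0, and without it the difference was 0.94, whereas without cell 1 it was -0.18. In the other 7 cells the lowest value was 885 CPM. Arpc1b, the subunit form typical of blood cells (chromosome 5, 145114215 to 145130705), ran from 0 to 722 CPM (median 151), and from 0 to 1994 in non-photoconverted cells (median 102), with a matched weighted median of 152 and a difference of 0.16 (SD 1.88 and 1.63). Detection of Arpc1b was 7 of 8 photoconverted cells (47.3 to 99.7%), 77.5% of depth-matched and 54.1% of all non-photoconverted cells (43.7 to 64.2%), and that of Arpc2 was 7 of 8, 87.5% and 71.4% (61.4 to 80.1%). Both were at 16 reads in 0 of 221 empty wells.

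Among the filament-binding genes of leukocytes, Coro1a stood closest to the matched cells and Lsp1 was the lowest of the 10 in photoconverted cells. Coro1a, coronin 1A (chromosome 7, 126699773 to 126707787), ran from 35.4 to 907 CPM in photoconverted cells (median 285), from 0 to 1357 in non-photoconverted cells (median 314), and had a matched weighted median of 326. The difference was -0.08 log2 units (SD 1.33 and 1.37). It was detected in 7 of 8, 90% and 74.5% (64.7 to 82.8%) of photoconverted, matched and all non-photoconverted cells.

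Lsp1, a filament-binding protein of leukocytes (chromosome 7, 142460809 to 142494867) had 1, 0, 183, 3, 0, 0, 92 and 0 reads in photoconverted cells 1 to 8. Cells 3 and 7 therefore held it at 321 and 87.7 CPM, and the other 6 had at most 3 reads, which is within the 5 reads seen in the highest empty well. Cell 4, the deepest with 5129 genes and 1677643 reads, was among those with almost none. Depth-matched non-photoconverted cells ran from 0 to 1041 CPM with a weighted median of 222, and all non-photoconverted cells from 0 to 6992 with a median of 14.5. The level difference from matched cells was -2.41 log2 units (SD 1.95 and 2.24). That was the one core gene difference of more than 1 unit downwards, or 1 of 10, where 6.51% of all genes tested passed that limit, and 0.102% of the genes tested had a lower difference. By share, the Lsp1 difference was -42.5 percentage points (2 of 8 against 67.5%), 1 of 10 core genes past 25 points where 3.06% of genes tested were. No core gene was over 25 points higher, where 7.79% of genes tested were. Only Lsp1 had room for such a rise, since depth-matched detection was 77.5% or more for every other core gene. Against all non-photoconverted cells, of which 39.8% had Lsp1 (30.0 to 50.2%), the share difference was -14.8 points and the photoconverted interval of 3.19 to 65.1% covered it. Without any 1 photoconverted cell the level difference stayed between -3.08 and -2.01. It was -3.89 with a pseudocount of 1 CPM, -1.03 with 100 CPM, -1.36 without matching, -1.42 without a cell filter and -1.81 without dividing cells. The share count depended on single cells: without cell 1, 2, 3, 4, 6 or 7, 2 of 10 were past 25 points downwards, Tmsb10 being the second at -25.7, where 3.61 to 5.53% of genes tested were. It was 0 of 10 without matching (0.0612% of genes tested) and without a cell filter (0.719%). Drawing down to 1000 reads, with detection at 1 read or more, also gave 0 of 10 (0%). There Lsp1 could not fall by 25 points, since its matched expected share was 19.5%. After drawing down to 5000 reads Lsp1 was at -37.4 points, and 1 of 10 was past the limit (1.02%). Lsp1 was already known to be lower when this gene list was drawn up, so its place is a description of these 8 cells.

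**Figure D3:**
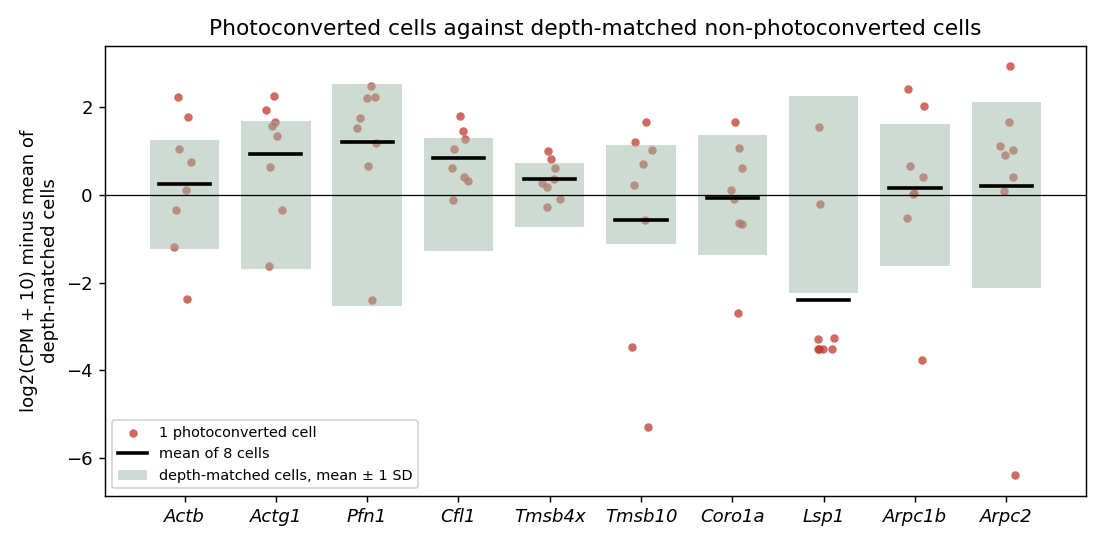
Each photoconverted cell's log2(CPM + 10) minus the mean of depth-matched non-photoconverted cells, by core gene. Points are the 8 cells, black lines their means, and shaded bars the mean ± 1 SD of the depth-matched cells. The mean lies outside the shaded bar for Lsp1, at -2.41, and inside it for the other 9 genes.

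Across the 10 genes, 7 were above and 3 below the depth-matched level, with a median difference of 0.23 log2 units beside a median of 0 over the 4901 genes tested. By share of cells, 4 were above, 3 below and 3 equal, with a median of 0 points beside 2.5 over all genes tested. Leaving out photoconverted cell 1, the highest for Actb, Pfn1, Tmsb10, Coro1a, Arpc1b and Arpc2, gave a median level difference of -0.02, and leaving out cell 4 gave 0.05. The median was 0.38 without cell 5, 0.35 without cell 8 and 0.62 without a cell filter. It was 0.53 without cells 7 and 8, the 2 photoconverted cells closest to the sort boundary. With 1 gene of 10 past the level limit in each direction, the core genes stood near the background in the upward direction, and the downward count is Lsp1.

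The contrast without depth matching was larger. Without matching, the median level difference was 0.69 over the core genes and 0.32 over all genes tested, and the median share difference was 13.1 points over the core genes and 11.7 over all genes tested. Within non-photoconverted cells, the 49 cells with more than 1637 genes exceeded the other 49 by 1.82 log2 units in Arpc2, 1.74 in Lsp1, 1.62 in Arpc1b, 1.42 in Actg1, 1.37 in Cfl1 and 1.08 in Pfn1. The gap was 0.66 in Actb and 0.17 in Tmsb4x, beside a median of 0.52 over all genes tested. Drawing every cell down to 1000 reads gave a mean expected detection of 36.7% for Tmsb10 in photoconverted and 36.3% in matched cells, 28.3 and 29.6% for Coro1a, 20.04 and 17.2% for Arpc1b, 88.9 and 73.6% for Pfn1, and 4.53 and 19.5% for Lsp1.

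**Figure D4:**
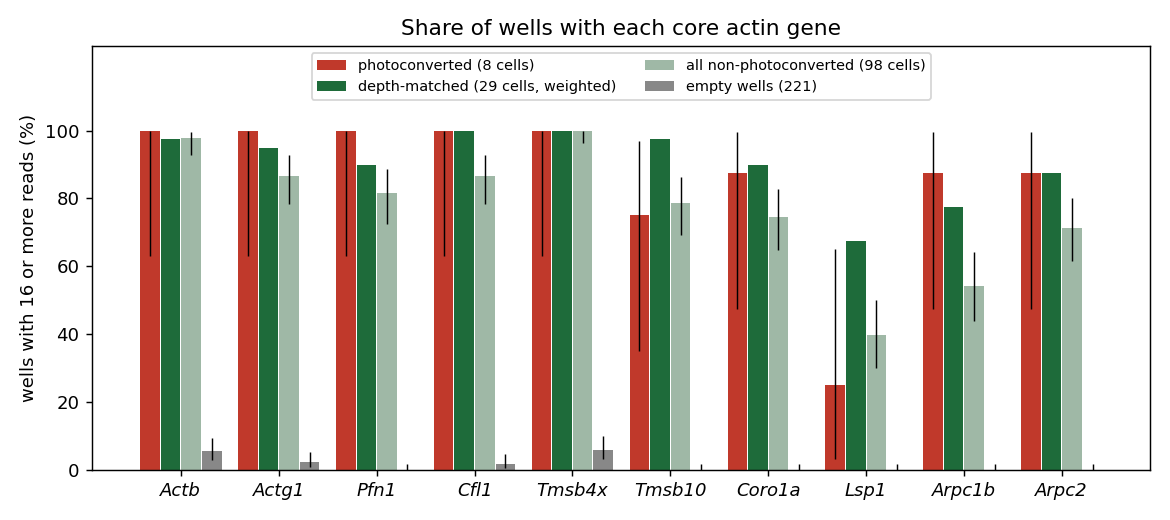
Percentage of wells with 16 or more reads of each core gene in photoconverted cells (n = 8), depth-matched cells (n = 29, weighted), all non-photoconverted cells (n = 98) and empty wells (n = 221); lines are exact 95% binomial intervals, which cover counting error of wells only and are not drawn for the weighted cells. Lsp1 has the lowest bar in photoconverted cells, at 25%, and empty wells stay at or under 5.88%.

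Together the 10 genes took from 2.16 to 7.19% of a photoconverted cell's gene reads (median 3.68%), and from 0.550 to 7.05% in non-photoconverted cells (median 2.31%). The depth-matched weighted median was 2.72%, and 5 of 8 photoconverted cells lay above it, so the groups overlapped. The gap of 0.96 points between these medians was 0.54 to 0.55 without cell 1, 3, 4 or 6, and 1.37 without cell 7 or 8. The combined share had a Spearman rho of 0.10 with the number of genes over 98 non-photoconverted cells of 1 library. Without matching the gap between medians was 1.38 points, and the part of depth in it was not tested. Relative to spike-in RNA the core genes gave a median of 36.0 reads per 100 spike-in reads in photoconverted cells, a weighted 18.7 in matched and 7.28 in all non-photoconverted cells, while median spike-in reads were 59283.5, 66549 and 67405. On that scale the median level difference from matched cells was 0.59 log2 units over the core genes and 0.13 over 5766 genes tested there. More RNA per cell and better capture of it cannot be told apart here. Of the core genes, a median of 9 per photoconverted cell and 8 per non-photoconverted cell reached 16 reads, and the matched weighted median was 10. All 10 were found in 2 of 8 and in 19 of 98 cells, since Lsp1 was missing from 6 photoconverted cells.

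Wells that missed the filter held some of the core genes. Of 53 such non-photoconverted wells, 14 had Tmsb4x, 13 each had Actb and Actg1, and 1 had Lsp1 at 16 reads or more. Of the 4 such photoconverted wells, 3 had Actb and 1 had Lsp1, with 26 reads, while Coro1a and Arpc2 had 0 reads in all 4. Empty wells held 0.444% of all gene reads but 0.901% of Actb reads, 0.625% of Tmsb4x reads and 0.0867% of Arpc2 reads, and at 1 read or more Actb was present in 57.5% of them.

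The core genes varied together only weakly. Over the 98 non-photoconverted cells, which share a library and differ in depth, the median Spearman rho of the 45 pairs on log2(CPM + 10) was 0.14, from -0.13 to 0.34, beside a median of 0.06 over pairs of the 240 genes detected in at least 50% of these cells. The pairs above 0.3 were Tmsb4x with Tmsb10 and Cfl1 with Lsp1, both at 0.34. These were 2 of 45, near the 4.35% of pairs of the 240 genes that passed 0.3. With the number of genes held constant, 1 of 45 passed, beside 2.93%. Actb and Actg1 stood at 0.14. With the number of genes held constant the median was 0.08, beside 0.02 over pairs of the same 240 genes, which include 9 of the core genes. In the 29 depth-matched cells it was 0.11, and in the 8 photoconverted cells 0.38, from 0.32 to 0.54 when each cell was left out in turn. These last points are few, and no value over pairs of other genes was made for the photoconverted cells. Cells 1 and 8 stood high and low on many genes at once, and the median was 0.32 without cell 1 and 0.43 without cell 8. Per spike-in read, a scale that keeps each cell's RNA amount, the median rho over non-photoconverted cells was 0.54, beside 0.46 over pairs of those 240 genes.

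**Figure D5:**
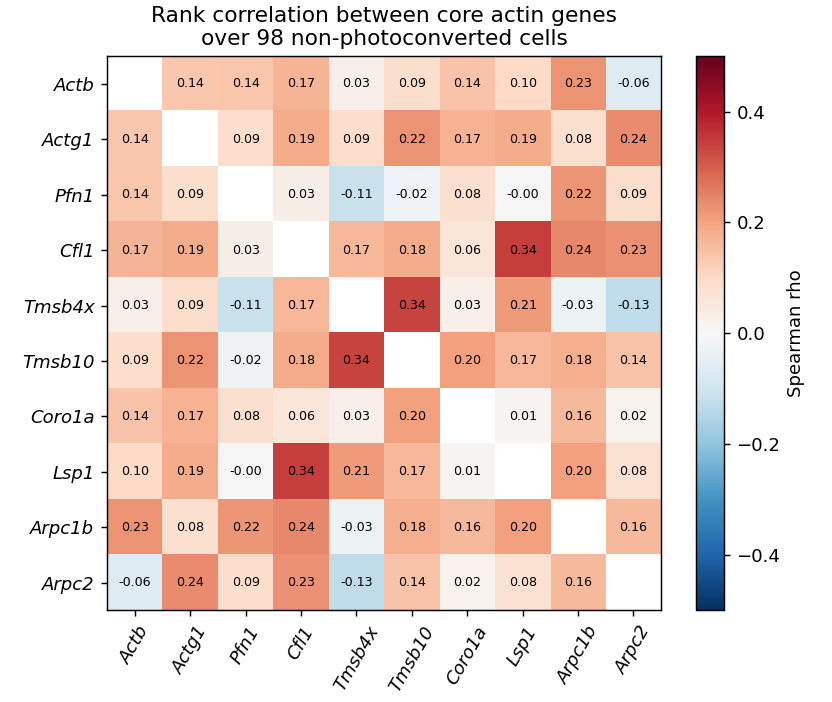
Spearman rho between each pair of core genes over 98 non-photoconverted cells on log2(CPM + 10), from blue (negative) to red (positive). Tmsb4x with Tmsb10 and Cfl1 with Lsp1 are the darkest squares at 0.34, and the median pair is at 0.14.

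Outside the list, the genes most like the core genes' mean standardised level over non-photoconverted cells were Hsp90ab1 (rho 0.50), a chaperone, Ybx1 (0.48), an RNA-binding protein, Ucp2 (0.47), a mitochondrial carrier, Eif4g2 (0.45), a translation factor, Esyt1 (0.43), a membrane tether, and Hspa8 (0.42), a chaperone. The median over 231 genes was 0.14. That mean itself had a rho of 0.63 with the number of genes, and with it held constant the 6 values were 0.14 to 0.24.

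Other genes of the actin machinery were taken from 8 written lists, and 64 of 78 with a row had the mean of 20 CPM needed for the comparison. Over these, 8 were more than 1 log2 unit higher in photoconverted than in depth-matched cells (12.5%, background 10.2%) and 4 lower (6.25%, background 6.51%), with a median of 0.26. Both shares were near the background.

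Among the other Arp2/3 subunits, 1 of 6 passed the limit upwards. Arpc5 had a median of 1333 CPM in photoconverted cells against a matched weighted median of 870 and a difference of 1.43, and Actr3, which helps form the start of a new branch, had 471 against 564 with a difference of 0.06. Of 10 activators of the complex and formins, 2 were higher and 1 lower. Fmnl1, a formin of blood cells that lengthens unbranched filaments, had the largest value of the lists at 2.18 and was detected in 7 of 8 photoconverted and 50% of matched cells. Brk1, a part of the WAVE complex, was at 1.22, and Wipf1, which binds the Wiskott-Aldrich protein, was lower at -1.34. Detection of Brk1 was 4 of 8 against 25% of matched cells, and that of Wipf1 4 of 8 against 60%.

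Of 6 further monomer and turnover genes, 1 was lower, Gmfb at -1.10, found in 2 of 8 cells against 40% of matched cells. Wdr1, a partner of cofilin, was at 0.80 and Ssh2, a phosphatase that activates cofilin, at 0.30. Of 7 capping genes and coronins, 1 was lower: Capza2, a capping protein subunit, was at -1.47 and found in 1 of 8 cells against 45% of matched cells. Its partner Capzb was at 0.10. Among 11 crosslinkers and membrane linkers, 2 were higher, the focal adhesion proteins Zyx at 1.24 and Vcl at 1.01. Vcl was found in 3 of 8 cells against 20% of matched cells, with a median of 0 CPM in both. Lcp1, plastin of leukocytes, was at 0.48 and Tln1, which links integrins to actin, at -0.10.

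Of 8 myosin and tropomyosin genes, 1 was higher, the myosin regulatory light chain Myl12a at 1.59. Myl6, the essential light chain, was at 0.77 and Tpm3 at 0.30. These single values rest on 8 cells of 1 plate.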

How the data were processed

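Single cells were made into SORT-seq libraries by a CEL-seq2-based method, per the labels' protocols. Raw read counts (rows by wells) were deposited by the authors along with, for each well, the sorted phenotype and a red fluorescence intensity, in arbitrary units, used only to rank photoconverted cells. Per the submitters' processing notes, mm10, STAR, STARsolo and edgeR were used; versions and how multi-mapped or opposite-strand reads were counted are not given in the sources used here. Actins have near-identical processed copies, so reads may be split. Values are reads, with up to 119691 in 1 row and well of plate 1, so PCR copies are included and intervals cover counting error of cells only.

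Row names could be used on plate 1 only, so 3 of 4 plates were not analysed here. The 78 spike-in rows of plate 1 (43.2% of its 52614294 reads) were left out of totals. CPM scales the reads of 11352 gene rows to 1000000 per cell, ribosomal RNA row Rn45s (mean 7.55% of non-photoconverted gene reads) included. Reads are of 3′ ends and were not divided by length. CPM includes PCR copies, so the order of genes by CPM need not be their order by level. Levels were averaged as log2(CPM + 10). Comparison across genes took 4901 with a mean of 20 CPM or more. Calls are differences over 1 log2 unit or 25 percentage points, with no test because 1 plate is 1 sample. Detection was set at 16 reads, since low reads occur in empty wells. No doublet caller was run. Named genes were the 10 core genes, of each written list the 2 with the highest mean CPM and any past 1 log2 unit, and the 6 most alike in rank correlation. Values of 1 of the 8 lists of actin machinery, counted in their total, are not reported here. The members and lists were chosen with earlier results of these data known. Python 3.11.15, pandas 2.3.3, numpy 2.4.6 and scipy 1.17.1 were used. Coordinates are from GENCODE M21.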

Additional observations from a re-analysis of the deposited data

How the results depend on the processing

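Lsp1 stayed lower, and Pfn1, Actg1, Cfl1, Tmsb4x and Actb higher, by level under every alternative run, but Actb by as little as 0.006 and Pfn1 by 0.37; values over 8 cells of 1 plate allow no statement on the conditions. The number of core genes more than 1 log2 unit higher, 1 as reported, was 0 with a pseudocount of 100 CPM (background over all genes tested 1.33%) and by the ratio of mean CPM (13.4%), 2 with 3 or 10 nearest cells or matching on reads (10.4 to 11.1%), 3 per spike-in read (17.8%), and 4 without matching (20.6%) or without a cell filter (6.35%). The number lower, 1 as reported, was 2 with a pseudocount of 1 CPM (17.2%) and without a cell filter (3.04%). Leaving out each photoconverted cell gave 0 to 2 core genes higher (9.96 to 12.9%). For the wider lists, 8 higher and 4 lower became 17 and 8 with a pseudocount of 1 CPM (22.6 and 17.2%), 1 and 0 with 100 CPM (1.33 and 0.388%), and 32 and 0 without matching (20.6 and 0.449%). They were 17 higher per spike-in read (17.8%), 8 lower by the ratio of means (31.5%) and 2 lower without a cell filter (3.04%). Leaving out each photoconverted cell gave 7 to 12 higher and 2 to 6 lower (6.67 to 8.33%). The median share difference was 13.1 points without matching, and the median rho was 0.54 per spike-in read. Correlation within depth-matched cells alone was an alternative chosen after seeing the data. In each case the cause was not tested. No paired analysis was possible because both colours come from the same plate and the other plates' rows are not named.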
